A study of Homo sapiens with 12 samples.

Results

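The genes described here are the protein-coding genes that start between 25.5 and 46.7 Mb on chromosome 21 (GRCh38), which is most of the long arm, 21q, and that had a mean of at least 5 CPM (counts scaled to library size with TMM factors) over 12 RNA-seq libraries. The rule left out by name ADAMTS1, ADAMTS5, SOD1, MX1, CBS, LSS and BACH1 and symbols starting NDUF, ATP5, MRP, PSM or COL. It took 81 of the 157 protein-coding genes of the region. Of the others, 15 reached 5 CPM but were left out by name and 61 were under 5 CPM. The tables held 40649 genes, of which 19268 were tested. The region was chosen by measured values, because its genes had been seen to be higher in shNC_H2O2 than in shNC, so that comparison is given below as a description with no test.

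Chromosome 21 is the smallest human autosome, and an extra copy of it, trisomy 21, is the basis of Down syndrome, in which genes of the long arm are studied for how far each follows the number of copies. The arm carries genes of unrelated function, among them a cluster of interferon receptor genes, the amyloid precursor APP, the kinase DYRK1A, the calcineurin inhibitor RCAN1 and several transcription factors. DNA copy number was not measured here.

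The cells were HK-2, a human kidney line derived from proximal tubule epithelium, although the extraction text in the labels speaks of kidney tissue. There were 3 groups of 4 libraries. The shNC cells carried a control hairpin and were untreated. The shNC_H2O2 cells carried the same control hairpin and were given 150 µM hydrogen peroxide, an oxidant, for 48 h. The shYAP1_H2O2 cells had the same treatment and a hairpin against YAP1, a co-activator of transcription in the Hippo pathway. Every group thus carried a hairpin, and cells with the YAP1 hairpin but no H2O2 were not analysed here. The labels do not tell whether replicates are separate cultures, and p-values therefore measure only the scatter of these 4 libraries per group, which may be technical. In bulk RNA, fewer cells of a type and less RNA per cell cannot be told apart.

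Total counts were 30789997 to 46582873 per library, and 3 counts corresponded to 0.0644 to 0.0974 CPM. YAP1 itself was at 124 to 141 CPM in shNC, 151 to 164 in shNC_H2O2 and 111 to 136 in shYAP1_H2O2. The shYAP1_H2O2 libraries were thus all below those of shNC_H2O2 but overlapped those of shNC. Mitochondrial genes took 13.9% of counts in shNC replicate 4 and 11.3% in shYAP1_H2O2 replicate 3, against 4.54% to 5.64% in the other 10 libraries, so the counts of calls, and the values of named members in which these 2 stand apart, are also given without them. Of 17 proximal tubule markers 16 were found and 11 had at least 1 CPM, summing to 1822 to 1910 CPM in shNC, 1964 to 2011 in shNC_H2O2 and 1698 to 2136 in shYAP1_H2O2, while the defining markers LRP2, CUBN, AQP1 and ANPEP were near 0. Within that sum the means of PAX8 (427 and 244 CPM in shNC and shNC_H2O2) and DPP4 (256 and 130) were lower in shNC_H2O2, and that of CDH6 (251 and 587) was higher. Of 16 markers of other cells 2 reached 1 CPM, PDGFRB and LUM, and UMOD was at 0. Their sum was 99.5 to 106 CPM in shNC, 207 to 228 in shNC_H2O2 and 132 to 162 in shYAP1_H2O2, nearly all of it LUM, with means of 98.8, 217 and 149 CPM in the 3 groups, while PDGFRB had means of 2.10, 1.27 and 1.54 CPM. Their part in the results below was not tested.

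RefSeq promoter windows (GRCh38.p14, 250 bases before to 50 after the start) were found for 67 of the 81 members, and are shown because a run of neighbouring genes could share sequence features as well as position. CGGAAG, the core bound by ETS factors such as GABPA and ETS2, both encoded on this arm, was present on either strand in 21 of the 67 member windows (31.3%), against 19.9% of all 27305 windows and 25.6% of the 15843 of protein-coding genes. TGACNNNGC, the core of the antioxidant response element, was present on either strand in 10 of 67 (14.9%), against 13.6% of all windows. Matches of these motifs were counted separately, even where they overlap. A match describes letters and is neither a bound site nor a cause. Stretches of 30 bases around a match are printed 5′ to 3′ in the sense of the gene, with the match in capitals, for members that the results below return to.
PTTG1IP, chr21:44873690-44873719, minus strand: ctcgcaggtccaCTTCCGgcgccgcggctg
HMGN1, chr21:39349241-39349270, minus strand: ggggggggccccCGGAAGggggcggggtcc
GABPA, chr21:25734894-25734923, plus strand: acctccgctctaCTTCCGgccctggctccg
SUMO3, chr21:44818231-44818260, minus strand: agcgccctagggCTTCCGcgcccgacgggg
PFKL, chr21:44300008-44300037, plus strand: gggcggggcgggCGGAAGgcgcgcgcgggg
IFNGR2, chr21:33403163-33403192, plus strand: ttcCGGAAGgatcgcggcccccgaaggtgg
KCNJ15, chr21:38272461-38272490, plus strand: gcttccccctGCTGAGTCAgttccccagat
ETS2, chr21:38805013-38805042, plus strand: ctcatcaatcTGACGTGGCaggttattcat
SIK1, chr21:43427242-43427271, minus strand: tggcgtcaaaGCGACGTCAatgggcggccc
DYRK1A, chr21:37365427-37365456, plus strand: aatcaattagTGACTCTGCtgtaaaatagt
CTTCCG is CGGAAG read on the opposite strand, and in KCNJ15 and SIK1 the other motif is likewise on the opposite strand. The first 6 stretches hold CGGAAG and the last 4 TGACNNNGC, and both sets include members that were higher and members that were not higher in shNC_H2O2. The 250 bases before the start of APP, the member of highest CPM, and of RUNX1, which was lower in shNC_H2O2, held neither motif.
APP, chr21:26171129-26171378, minus strand: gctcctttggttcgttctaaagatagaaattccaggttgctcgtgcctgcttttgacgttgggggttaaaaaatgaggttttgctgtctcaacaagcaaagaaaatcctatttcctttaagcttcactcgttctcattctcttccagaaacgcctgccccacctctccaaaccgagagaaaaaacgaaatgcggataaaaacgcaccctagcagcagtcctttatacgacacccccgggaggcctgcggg
RUNX1, chr21:34888700-34888949, minus strand: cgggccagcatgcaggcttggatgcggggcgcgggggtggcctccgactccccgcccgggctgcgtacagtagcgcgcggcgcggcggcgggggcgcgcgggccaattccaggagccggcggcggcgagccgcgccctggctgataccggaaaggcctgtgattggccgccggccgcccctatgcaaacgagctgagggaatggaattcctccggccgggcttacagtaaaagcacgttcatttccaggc
By the classes defined in the next paragraph, CGGAAG was present in 16 of 39 windows of following members (41.0%), 2 of 9 of lagging, 1 of 12 of exceeding and 2 of 7 of escaping ones. TGACNNNGC was present in 6 of 39 following, 0 of 9 lagging, 2 of 12 exceeding and 2 of 7 escaping ones. The starts used by RefSeq for RUNX1 and KCNJ15 lie inside the annotated spans of these genes (chr21:34787801-36004667 and chr21:38155549-38307357). The printed stretches of PTTG1IP, HMGN1, GABPA, SUMO3 and IFNGR2 likewise lie inside the annotated spans of their genes, not before them. Other starts of all these genes were not examined.

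Most genes of the arm were higher in shNC_H2O2 than in shNC. The median log2 fold change of the 81 members was 0.48, with quartiles of 0.21 and 0.71, a range from -0.59 to 2.19, and 72 members above 0. Over all tested genes the median was 0.00, and over the 10784 other protein-coding genes of at least 5 CPM it was 0.01. The members differed among themselves about as much as other genes do, with a distance between quartiles of 0.50 against 0.54 for those other genes. In edgeR's quasi-likelihood test with Benjamini-Hochberg adjustment over all genes, 58 members were called higher and 3 lower at an adjusted p under 0.05, where 23.9% of all tested genes were called higher and 22.6% lower. In 62 members all 4 shNC_H2O2 libraries lay above all 4 shNC libraries and in 3 all lay below, where 25.2% and 22.9% of all tested genes did so. These counts come from the comparison that chose the region. Members were sorted by this log2 fold change into 9 that escaped (below 0), 11 that lagged (0 to under 0.2), 45 that followed (0.2 to under 0.8) and 16 that exceeded (0.8 or more).

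**Figure D1:**
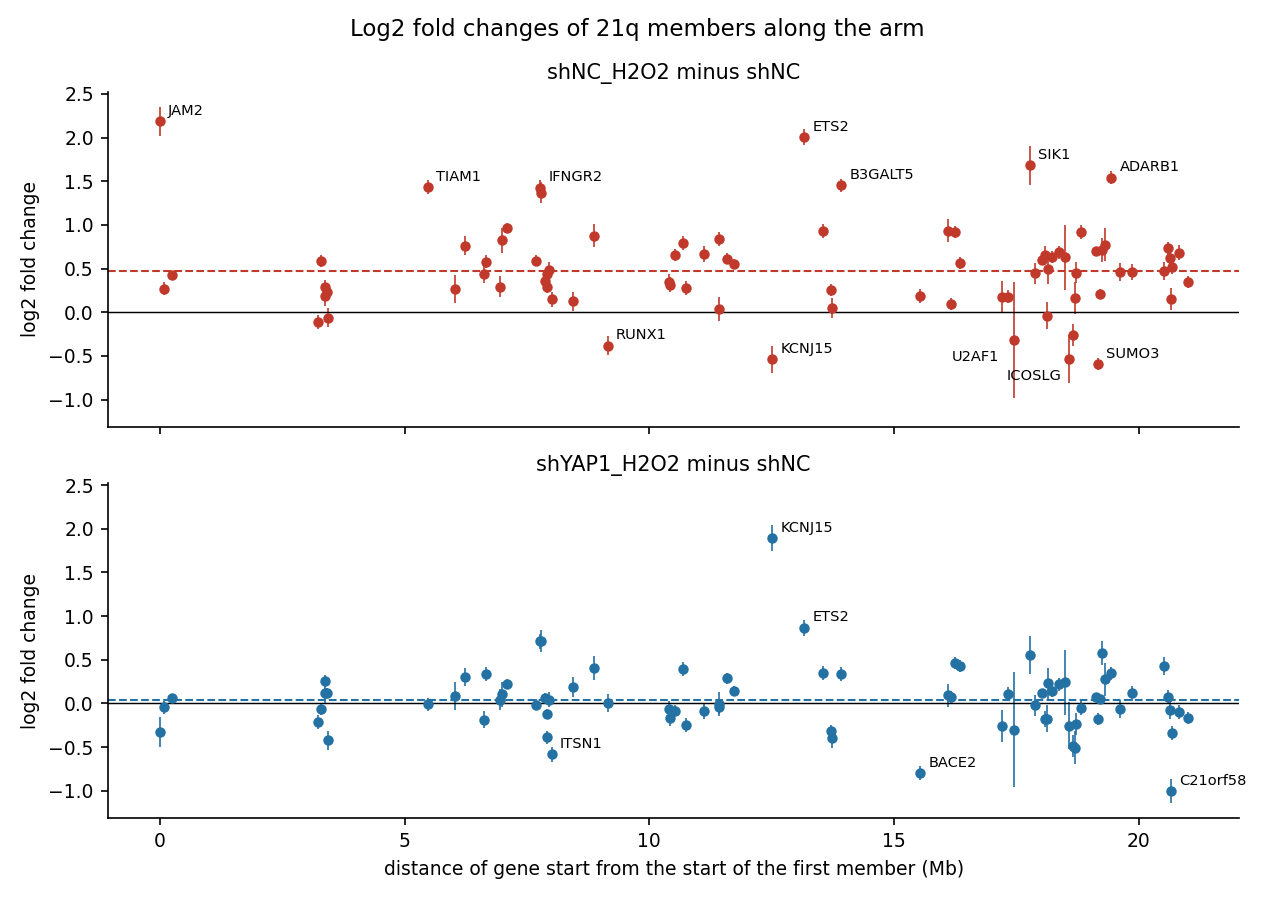
Log2 fold change (y axis, points with SE bars) of each of the 81 members against the distance of its start from that of the first member in Mb (x axis), for shNC_H2O2 minus shNC (top) and shYAP1_H2O2 minus shNC (bottom). Dashed lines are the medians, 0.48 and 0.04. Members below 0 in the top panel lie between members above 0, apart from the adjacent pair ICOSLG and PFKL.

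The same shift was visible in each library. The median over members of log2(CPM + 0.5) minus the shNC mean was 0.48, 0.48, 0.51 and 0.50 in the 4 shNC_H2O2 libraries. It was 0.01, 0.02, 0.02 and -0.01 in shNC and 0.04, 0.00, -0.02 and 0.04 in shYAP1_H2O2. The shNC_H2O2 libraries thus stood apart from the other 8, which overlapped one another. For the other protein-coding genes of at least 5 CPM the same median stayed between -0.00 and 0.04 in all 12. Members took 0.75% ± 0.00 of counts in shNC_H2O2 (SD, n = 4), 0.51% ± 0.03 in shNC and 0.52% ± 0.03 in shYAP1_H2O2. The median coefficient of variation of a member between libraries was 4.29% in shNC_H2O2 against 8.99% in shNC and 8.47% in shYAP1_H2O2, but without the 2 libraries of high mitochondrial share it was 4.53% in shNC and 4.17% in shYAP1_H2O2, close to that of shNC_H2O2.

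**Figure D2:**
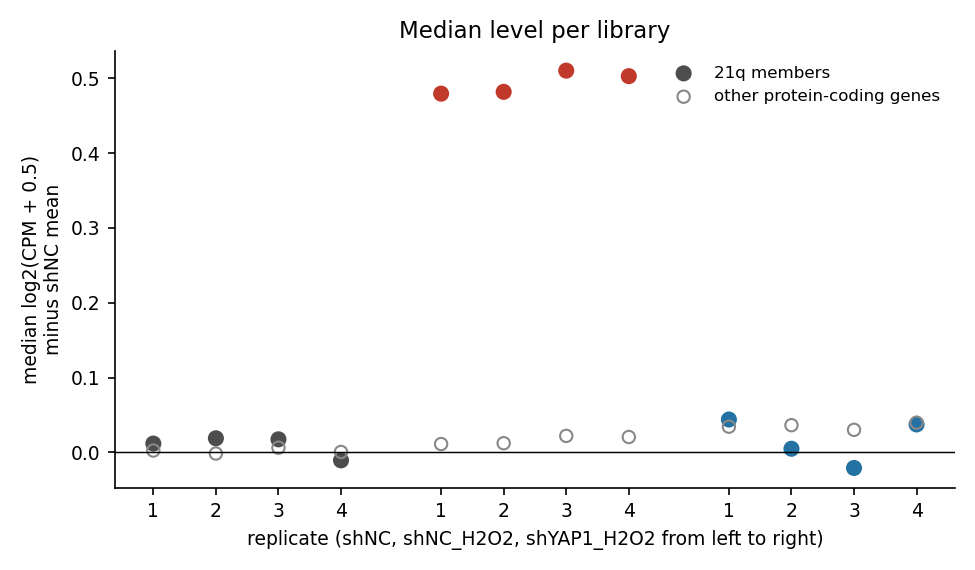
Median log2(CPM + 0.5) minus the shNC mean (y axis) in each of the 12 libraries (x axis, replicate number), for the 81 members (filled; grey shNC, red shNC_H2O2, blue shYAP1_H2O2) and for other protein-coding genes of at least 5 CPM (open). The 4 shNC_H2O2 points lie between 0.48 and 0.51 and all others between -0.02 and 0.04.

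The size of the difference showed no steady trend along the arm. In steps of 5 Mb from the first member the median log2 fold change of shNC_H2O2 minus shNC was 0.27 (9 members), 0.49 (19), 0.58 (16), 0.48 (30) and 0.52 (7). Across members, Spearman's rho of the log2 fold change was 0.03 with the start on the arm, 0.07 with mean CPM, 0.08 with exon bases and 0.30 with gene length (n = 81, all from the same 8 libraries). By mean level, the median was 0.32 from 5 to under 20 CPM, 0.67 from 20 to under 50, 0.55 from 50 to under 100 and 0.43 at 100 CPM or more. The 6 measured protein-coding genes before the region were mixed, with NRIP1 at 1.12, C21orf91 at 1.07, HSPA13 at 0.92, USP25 at 0.18, BTG3 at -0.02 and CXADR at -2.35. No measured gene started after PRMT2, the last member, whose log2 fold change was 0.35 ± 0.07 (SE). Just inside the level limit were CFAP410 (5.13 CPM) and CFAP298 (5.17 CPM), and just outside it ERG (3.71 CPM, log2 fold change 1.89) and SLC37A1 (3.57 CPM, 0.04).

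The members that escaped did not form a block of their own. SUMO3 at -0.59 lay between UBE2G2 at 0.70 and PTTG1IP at 0.21, whose starts were 37.0 and 44.0 kb away. KCNJ15 at -0.54 lay between DYRK1A at 0.55 and ETS2 at 2.01. RUNX1 at -0.38 lay between RCAN1 at 0.88 and SETD4 at 0.35. U2AF1 at -0.32 lay between PKNOX1 at 0.18 and SIK1 at 1.68. N6AMT1 at -0.11, MAP3K7CL at -0.06 and CSTB at -0.04 likewise had members above 0 on both sides. The exception was the adjacent pair ICOSLG (-0.53) and PFKL (-0.26), followed by CFAP410 at 0.16, which was itself below 0 (-0.02) without shNC replicate 4. CSTB is named as the remaining member of this class after its value was seen.

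**Figure D3:**
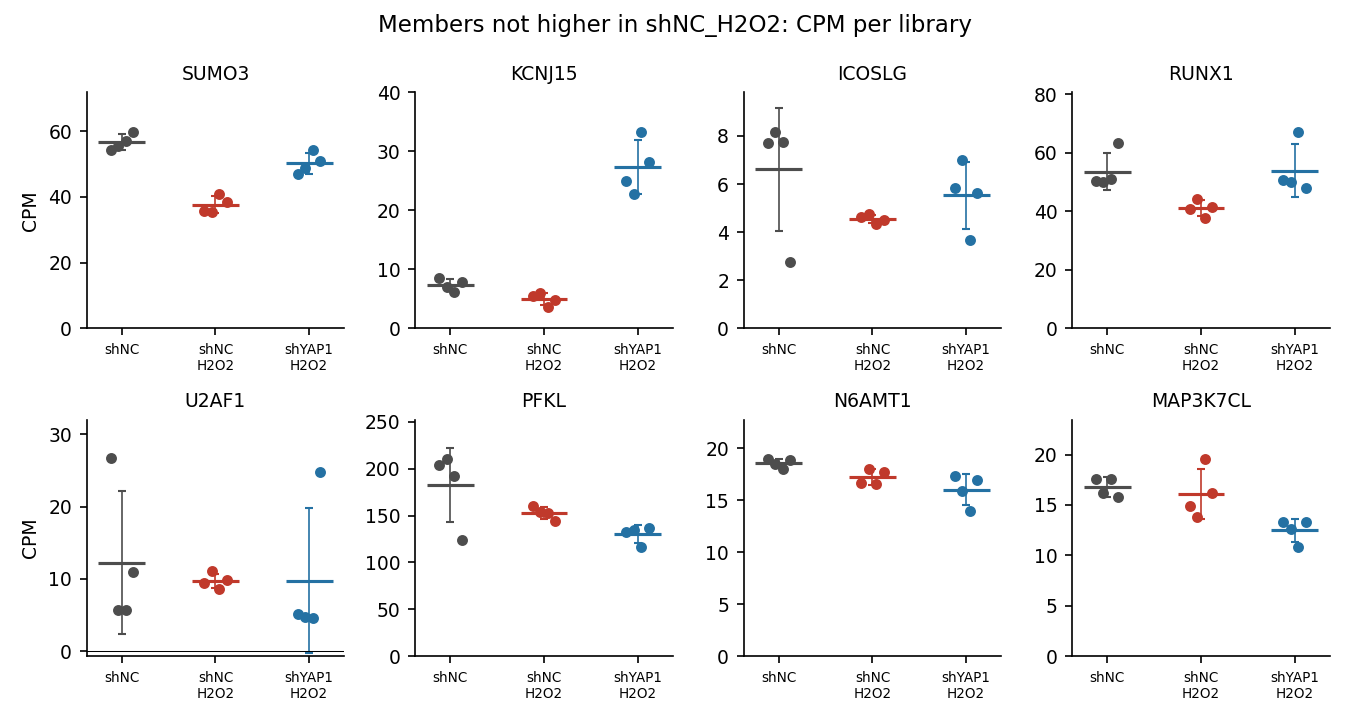
CPM (y axis) of the 8 members with the lowest log2 fold change in shNC_H2O2 minus shNC, by group (x axis); points are libraries, lines means and bars SD (n = 4). SUMO3, KCNJ15 and RUNX1 lie lower in all 4 shNC_H2O2 libraries than in any shNC library, and KCNJ15 is at 22.9 to 33.3 CPM in shYAP1_H2O2.

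Both interferon receptor genes among the members were above the median of the arm. IFNAR1, a chain of the type I interferon receptor (chr21:33324477-33359862), was at 65.7, 63.2, 66.0 and 74.8 CPM in shNC, 100, 105, 98.0 and 103 in shNC_H2O2 and 65.1, 66.0, 66.1 and 70.1 in shYAP1_H2O2. Only the shNC_H2O2 libraries stood apart, with a log2 fold change over shNC of 0.59 ± 0.06 (SE). IFNGR2, a chain of the interferon gamma receptor, was at 13.2, 13.8, 14.6 and 11.8 CPM in shNC, 34.6, 39.3, 34.9 and 34.9 in shNC_H2O2 and 21.8, 19.8, 24.3 and 21.9 in shYAP1_H2O2. Its 3 groups did not overlap, with shYAP1_H2O2 between the others. IFNGR2 shares 12.8% of its exon bases with other genes, and its neighbour TMEM50B, a small membrane protein whose gene overlaps it, had like values of 1.37 ± 0.12 against 1.43 ± 0.09, so their reads cannot be fully told apart. IFNAR2 was at 1.26 CPM with 83.3% of its exon bases inside another gene. Its log2 fold change of shNC_H2O2 over shNC was -0.385 ± 0.202 (SE), with overlapping libraries. Both IFNAR2 and IL10RB were under the level limit.

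Transcription factors and chromatin proteins held the member of second highest log2 fold change and 2 escaping ones, RUNX1 and N6AMT1. The 15 of them had a median log2 fold change of 0.35 in shNC_H2O2 minus shNC, 13 above 0. ETS2, an ETS family activator, was at 17.6, 16.3, 19.3 and 15.9 CPM in shNC, 69.2, 65.1, 76.4 and 66.9 in shNC_H2O2 and 27.8, 35.98, 32.8 and 29.3 in shYAP1_H2O2. All 3 groups stood apart, and the log2 fold change of shNC_H2O2 over shNC was 2.01 ± 0.09. GABPA, another ETS factor, was at 33.98 ± 1.92 CPM (SD, n = 4) in shNC, 41.0 ± 2.64 in shNC_H2O2 and 33.0 ± 2.24 in shYAP1_H2O2. RUNX1, a factor of blood and epithelial development, was at 50.3, 50, 50.9 and 63.2 CPM in shNC, 40.8, 44.3, 37.8 and 41.5 in shNC_H2O2 and 50.5, 49.9, 67.2 and 47.8 in shYAP1_H2O2. RUNX1 was thus lower in every shNC_H2O2 library, and its highest values within shNC and shYAP1_H2O2 were in the 2 libraries of high mitochondrial share. Without these 2 its log2 fold change of shNC_H2O2 minus shNC was -0.30 ± 0.05 in place of -0.38. HMGN1, a nucleosome-binding protein, was at 279 ± 9.54, 333 ± 6.87 and 225 ± 23.2 CPM in shNC, shNC_H2O2 and shYAP1_H2O2. N6AMT1, a methyltransferase of a translation release factor that the role list places here, was at 18.6 ± 0.41, 17.2 ± 0.74 and 16.01 ± 1.502 CPM in the same order, with overlapping shNC and shNC_H2O2 libraries.

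Genes of splicing, RNA modification and ribosome assembly had a median of 0.58, with 10 of 11 above 0. ADARB1, an enzyme that edits adenosine to inosine, was at 15.7, 14.9, 14.6 and 13.1 CPM in shNC, 40.7, 43.1, 43.8 and 42.0 in shNC_H2O2 and 19.6, 18.1, 18.6 and 17.6 in shYAP1_H2O2. Its groups did not overlap. SON, a splicing cofactor of nuclear speckles, was at 224, 223, 229 and 258 CPM in shNC, 324, 315, 309 and 314 in shNC_H2O2 and 210, 210, 224 and 214 in shYAP1_H2O2. SON followed near the median, at 0.43 ± 0.06. U2AF1, which recognises the 3′ splice site, was the uncertain escape. It was at 26.7, 5.71, 5.76 and 10.9 CPM in shNC, 9.47, 11.1, 8.66 and 9.82 in shNC_H2O2 and 5.12, 4.68, 4.52 and 24.8 in shYAP1_H2O2, so 1 library in each of shNC and shYAP1_H2O2 lay far above the rest. A copy on the short arm shares 94.3% of the 50-base words of its transcripts. With the counts of both added, the log2 fold change of shNC_H2O2 minus shNC was 0.30 ± 0.44 in place of -0.32 ± 0.66.

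Genes of protein folding, ubiquitin, SUMO and proteolysis had the lowest median of the role groups, 0.23, with 7 of 9 above 0. SUMO3, a small ubiquitin-like modifier (chr21:44805617-44818779), was at 54.2, 55.5, 56.9 and 59.8 CPM in shNC, 35.6, 35.4, 40.9 and 38.4 in shNC_H2O2 and 46.8, 48.7, 54.1 and 50.9 in shYAP1_H2O2. The shNC_H2O2 libraries lay below both other groups, and the log2 fold change over shNC was -0.59 ± 0.07, the lowest of all members. CCT8, a subunit of the cytosolic chaperonin, was at 200, 201, 206 and 188 CPM in shNC, 227, 224, 246 and 233 in shNC_H2O2 and 217, 231, 195 and 220 in shYAP1_H2O2. It followed at the low end, at 0.23 ± 0.06. BACE2, an aspartic protease related to the beta-secretase of APP, was at 54.4, 60.6, 61.8 and 67.8 CPM in shNC, 68.6, 71.4, 72.1 and 66.3 in shNC_H2O2 and 34.2, 34.2, 40.0 and 32.9 in shYAP1_H2O2. BACE2 lagged, at 0.19 ± 0.08, with overlapping shNC and shNC_H2O2 libraries.

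Kinases, phosphatase regulators and signalling proteins had a median of 0.88, with 6 of 7 above 0. TIAM1, an exchange factor for the small GTPase Rac, was at 13.2, 13.5, 13.6 and 13.5 CPM in shNC, 37.1, 33.1, 39.6 and 35.6 in shNC_H2O2 and 13.7, 13.2, 12.5 and 14.1 in shYAP1_H2O2. It was high in shNC_H2O2 only. DYRK1A, a kinase that phosphorylates NFAT factors, was at 57.6, 59.6, 56.8 and 61.8 CPM in shNC, 89.0, 82.4, 90.1 and 84.3 in shNC_H2O2 and 63.4, 66.9, 65.1 and 65.0 in shYAP1_H2O2. RCAN1, an inhibitor of calcineurin, was at 18.3, 16.3, 18.1 and 12.4 CPM in shNC, 29.4, 30, 32.0 and 28.2 in shNC_H2O2 and 22.4, 24.4, 15.9 and 23.5 in shYAP1_H2O2. Both were high in every shNC_H2O2 library, by 0.55 ± 0.06 and 0.88 ± 0.13, and the lowest RCAN1 values of the other groups were in the 2 libraries of high mitochondrial share, without which RCAN1 was at 0.76 ± 0.06. SIK1, a salt-inducible kinase, was at 33.3, 24.0, 17.5 and 12.4 CPM in shNC, 66.7, 67.3, 67.8 and 77.4 in shNC_H2O2 and 33.3, 33.9, 28.6 and 32.3 in shYAP1_H2O2. A short-arm copy shares 85.5% of its 50-base words, and with the counts of both added the log2 fold change was 1.60 ± 0.18 in place of 1.68 ± 0.22. MAP3K7CL, a protein related in sequence to the kinase TAK1, was at 16.8 ± 0.96, 16.1 ± 2.49 and 12.5 ± 1.14 CPM in shNC, shNC_H2O2 and shYAP1_H2O2.

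**Figure D4:**
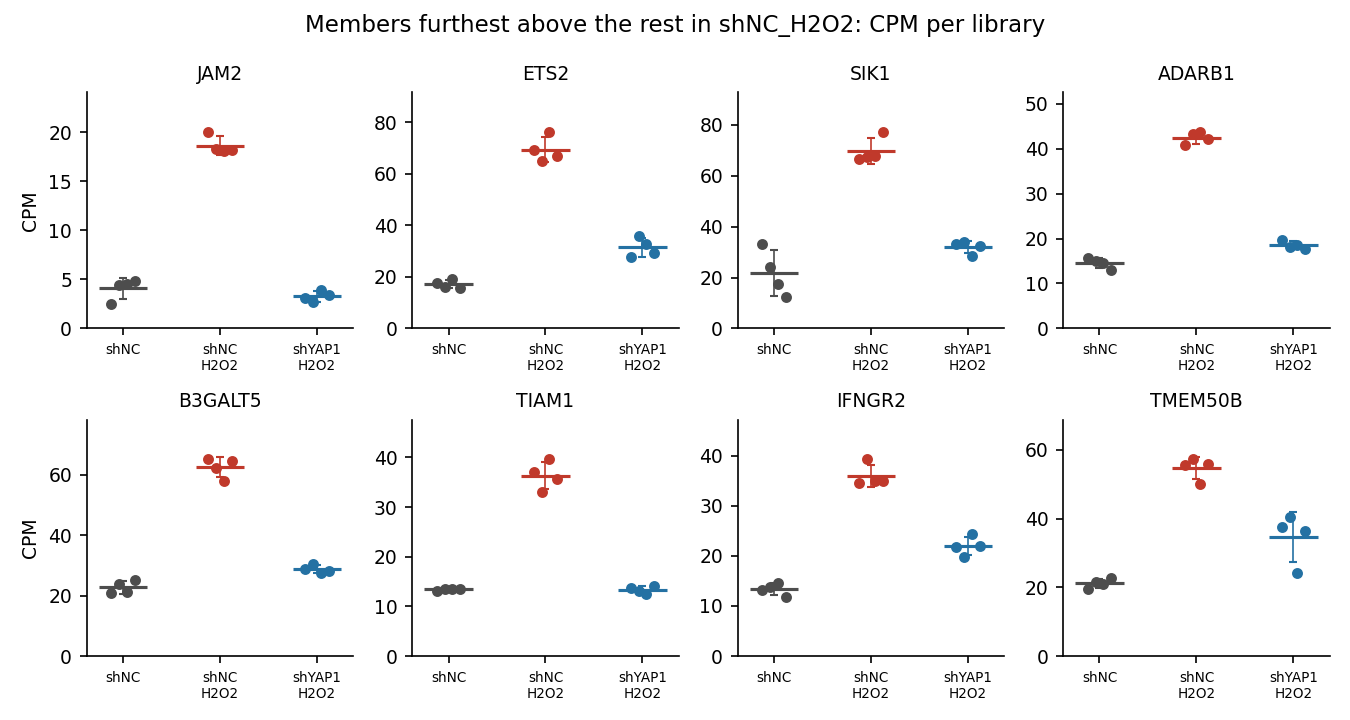
CPM (y axis) of the 8 members with the highest log2 fold change in shNC_H2O2 minus shNC, by group (x axis); points are libraries, lines means and bars SD (n = 4). In each panel all 4 shNC_H2O2 libraries lie above the other 8, and ETS2 reaches 65.1 to 76.4 CPM.

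Metabolic enzymes and transporters kept close together, with a median of 0.46 and 11 of 12 above 0. GART, which catalyses steps of purine synthesis, was at 123, 120, 132 and 135 CPM in shNC, 158, 162, 170 and 163 in shNC_H2O2 and 134, 139, 125 and 136 in shYAP1_H2O2. PDXK, the kinase that activates vitamin B6, was at 191, 208, 202 and 147 CPM in shNC, 295, 305, 295 and 289 in shNC_H2O2 and 172, 173, 142 and 174 in shYAP1_H2O2. Both followed, at 0.35 ± 0.06 and 0.66 ± 0.10, and the lowest PDXK values were in the 2 libraries of high mitochondrial share, without which PDXK was at 0.55 ± 0.03. PFKL, the liver-type subunit of phosphofructokinase in glycolysis, was at 204, 210, 192 and 124 CPM in shNC, 160, 154, 153 and 145 in shNC_H2O2 and 133, 135, 117 and 137 in shYAP1_H2O2. Its shNC_H2O2 libraries lay below 3 of the shNC libraries and above the 4th, the one of high mitochondrial share, and without that library the log2 fold change was -0.41 in place of -0.26 ± 0.13.

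Genes of membrane traffic, cytoskeleton, centrosome and cilia were all 9 above 0, with a median of 0.52, from ITSN1 at 0.15 to SYNJ1 at 0.83. ITSN1, an endocytic scaffold, was at 80.1 ± 9.07, 88.7 ± 4.91 and 53.6 ± 5.21 CPM in shNC, shNC_H2O2 and shYAP1_H2O2, and SYNJ1 codes for a lipid phosphatase of the same process. CFAP410, a ciliary protein, is uncertain because 46.4% of its exon bases lie in another gene, as is CFAP298 with 23.9%.

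Cell surface proteins, adhesion molecules and channels spread most, from -0.54 to 2.19 around a median of 0.71, with 8 of 9 above 0. JAM2, a junctional adhesion molecule and the first member along the arm, was at 2.53, 4.42, 4.50 and 4.85 CPM in shNC, 20.04, 18.2, 18.1 and 18.2 in shNC_H2O2 and 3.12, 2.65, 3.89 and 3.38 in shYAP1_H2O2. Its log2 fold change of shNC_H2O2 over shNC was 2.19 ± 0.16, the highest of all members, while the other groups overlapped. B3GALT5, a glycosyltransferase, was at 22.8 ± 2.11, 62.5 ± 3.26 and 28.8 ± 1.29 CPM in shNC, shNC_H2O2 and shYAP1_H2O2. KCNJ15, an inwardly rectifying potassium channel (chr21:38155549-38307357), was at 8.47, 6.97, 6.11 and 7.89 CPM in shNC, 5.56, 6.004, 3.71 and 4.86 in shNC_H2O2 and 25.02, 22.9, 33.3 and 28.1 in shYAP1_H2O2. It ran opposite to most members, lowest in shNC_H2O2 and highest in shYAP1_H2O2, with no overlap. APP, the precursor of amyloid beta, was at 986, 970, 980 and 897 CPM in shNC, 1298, 1306, 1265 and 1267 in shNC_H2O2 and 1027, 958, 1002 and 1006 in shYAP1_H2O2. PTTG1IP, which binds the securin PTTG1, was at 436, 434, 450 and 425 CPM in shNC, 502, 508, 512 and 503 in shNC_H2O2 and 437, 478, 430 and 459 in shYAP1_H2O2. Both followed in every library, by 0.42 ± 0.05 and 0.21 ± 0.05. TRPM2, a cation channel gated by products of oxidative stress, was at 0.45 in shNC_H2O2 minus shNC.

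**Figure D5:**
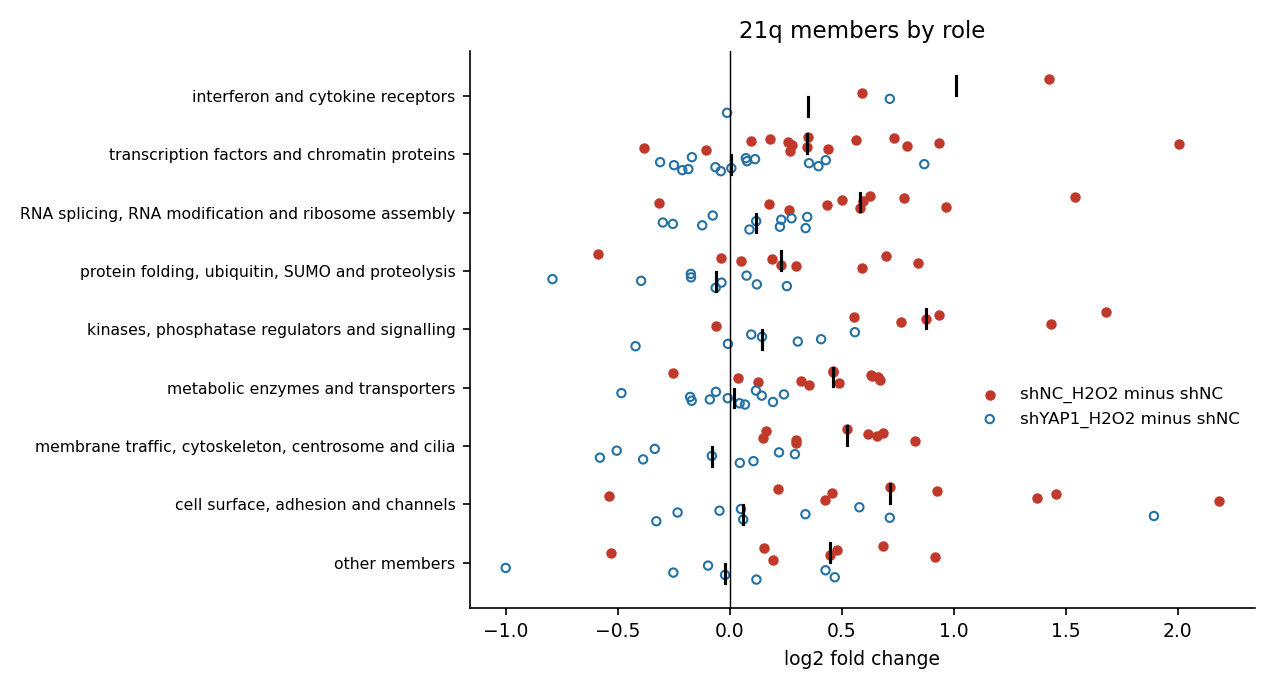
Log2 fold change (x axis) of each member by role (y axis), for shNC_H2O2 minus shNC (filled) and shYAP1_H2O2 minus shNC (open); black bars are medians. Every role has a median above 0 in shNC_H2O2 minus shNC, from 0.23 to 1.01, and medians from -0.08 to 0.35 in shYAP1_H2O2 minus shNC.

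The remaining 7 members had a median of 0.45, with 6 above 0. ICOSLG, a ligand of a T cell costimulatory receptor, was at 7.73, 8.18, 7.77 and 2.76 CPM in shNC, 4.62, 4.75, 4.34 and 4.51 in shNC_H2O2 and 5.85, 6.995, 3.66 and 5.63 in shYAP1_H2O2. Its escape rested on 3 shNC libraries, since the 4th lay below every other one. Without the 2 libraries of high mitochondrial share, of which it is one, ICOSLG was at -0.80 ± 0.11 in place of -0.53, and without it alone ICOSLG passed the test lower in shYAP1_H2O2 minus shNC (-0.52, edgeR adjusted p = 0.0148). A short-arm copy shares 33.7% of its 50-base words, and adding it gave -0.46 ± 0.27 in place of -0.53 ± 0.27. The other members with such copies, TRAPPC10 (43.1%) and GATD3 (32.5%), were at 0.69 and 0.63 alone and at 0.76 and 0.61 with the copies added.

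In shYAP1_H2O2 minus shNC_H2O2, which shares the shNC_H2O2 libraries with the comparison above and is likewise a description, the median of members was -0.47, and 3 were called higher and 58 lower, where 22% and 21% of all tested genes were. Of the members, 52 were called higher in shNC_H2O2 than in shNC and lower in shYAP1_H2O2 than in shNC_H2O2. Both calls use the same shNC_H2O2 libraries, and the share of all tested genes with both calls was not computed. KCNJ15 (2.43), SUMO3 (0.42) and RUNX1 (0.39) were the 3 members called higher in shYAP1_H2O2 minus shNC_H2O2.

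The comparison of shYAP1_H2O2 with shNC did not use the shNC_H2O2 libraries, though it shares the shNC libraries with the first, and each member was tested in it. Members lay on both sides of 0, with a median of 0.04, quartiles of -0.17 and 0.23, 43 of 81 above 0 and 41 within 0.2 of 0. Of 81 members 19 passed the test higher and 11 lower (23.5% and 13.6%), where 17.4% and 15.1% of all tested genes did. Among tested genes of at least 5 CPM, the members' own level limit, 23.2% passed higher and 18% lower. Among protein-coding genes of at least 5 CPM that are not members the median was 0.03, so the members stood close to the background. In 20 members all shYAP1_H2O2 libraries lay above all shNC libraries and in 9 below, where 15.8% and 13.9% of all tested genes did so. Without the 2 libraries of high mitochondrial share 23 passed higher and 22 lower, and 28 of the 30 calls were kept, while calls over all genes went from 6265 to 9146, or 24% higher and 22.8% lower. Leaving out only shNC replicate 4 gave 20 lower, a fit for which the share of all tested genes was not computed.

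KCNJ15 rose most, by 1.89 ± 0.15 on the log2 scale (edgeR adjusted p = 1.77e-07), with all 4 shYAP1_H2O2 libraries above all 4 of shNC. ETS2 rose by 0.87 ± 0.09 (adjusted p = 3.82e-06), IFNGR2 by 0.71 ± 0.09 (adjusted p = 1.39e-05) and TMEM50B by 0.71 ± 0.12 (adjusted p = 0.000354), each with no overlap. ADARB1 (0.34 ± 0.07, adjusted p = 0.00195) and B3GALT5 (0.34 ± 0.08, adjusted p = 0.00288) rose less. C21orf58, a gene of uncertain function, fell by 1.00 ± 0.13 (adjusted p = 3.27e-05), BACE2 by 0.79 ± 0.08 (adjusted p = 1.79e-06) and ITSN1 by 0.58 ± 0.09 (adjusted p = 9.7e-05), again with no overlap. HMGN1 fell by 0.31 ± 0.07 (adjusted p = 0.0026), MAP3K7CL by 0.42 ± 0.11 (adjusted p = 0.00673) and PFKL by 0.48 ± 0.13 (adjusted p = 0.0082). The fall of CFAP410 by 0.51 ± 0.19 (adjusted p = 0.0486) and the rise of RCAN1 by 0.41 ± 0.13 (adjusted p = 0.0301) each missed the threshold when some single libraries were left out, CFAP410 at adjusted p up to 0.133 (without shNC replicate 1) and RCAN1 up to 0.0942 (without shYAP1_H2O2 replicate 2). Without the 2 libraries of high mitochondrial share CFAP410 (-0.57 ± 0.12, adjusted p = 0.000144) and RCAN1 (0.41 ± 0.07, adjusted p = 4.33e-06) passed. So did PFKL (-0.59 ± 0.04, adjusted p = 2.85e-14).

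JAM2 (-0.33 ± 0.17, adjusted p = 0.157), TIAM1 (-0.01 ± 0.08, adjusted p = 0.943), SIK1 (0.56 ± 0.22, adjusted p = 0.0686), IFNAR1 (-0.01 ± 0.06, adjusted p = 0.895), APP (0.06 ± 0.05, adjusted p = 0.439), SUMO3 (-0.18 ± 0.07, adjusted p = 0.0648) and RUNX1 (0.01 ± 0.11, adjusted p = 0.973) did not pass in the edgeR test. Without shNC replicate 1, JAM2 (-0.49, adjusted p = 0.00873) and SIK1 (0.83, adjusted p = 0.0018) passed, and SIK1 also passed with its short-arm copy added (0.92 ± 0.18, adjusted p = 0.00155). Without the 2 libraries of high mitochondrial share SUMO3 (-0.19, adjusted p = 0.00242) and PDXK (-0.22, adjusted p = 3.56e-06) passed lower. ICOSLG, PRMT2 and SON then also passed lower, while CCT8, DYRK1A and GART passed higher. By class of the first comparison, 9 of 16 exceeding members passed higher and 0 lower, against 9 and 4 of 45 following, 0 and 5 of 11 lagging, and 1 and 2 of 9 escaping ones. These classes share the shNC libraries with this test.

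Genes encoded on other chromosomes whose products work with members were not chosen by their position and could be tested in shNC_H2O2 minus shNC, where 23.9% of all tested genes were higher and 22.6% lower. Chaperonin subunits other than CCT8 had a median log2 fold change of 0.02, with 1 of 7 higher and 2 lower, among them CCT3, which fell from 350 ± 32.1 to 226 ± 4.14 CPM (-0.63 ± 0.07, edgeR adjusted p = 1.89e-06). Purine synthesis enzymes other than GART had a median of -0.19, with 0 of 5 higher and 2 lower, led by PAICS at -0.78 ± 0.09 (adjusted p = 2.43e-06). CCT3 lies on chromosome 1 and PAICS on chromosome 4. Both chromosomes are among the shifted ones that an alternative scaling left out, and the part of their positions was not tested. Partners of the interferon receptors had a median of 0.07, with 4 of 13 higher and 5 lower. The signal transducer STAT2 rose by 1.07 ± 0.06 (adjusted p = 3.55e-10). Calcineurin and NFAT genes had a median of 0.17, with 3 of 8 tested higher and 1 lower. Partners of other subunits had a median of -0.05, with 4 of 29 higher and 10 lower. Of these, SUMO2, the modifier closest to SUMO3, fell by 0.33 ± 0.06 (adjusted p = 0.000217), and PFKP, the platelet-type subunit beside PFKL, fell by 0.72 ± 0.07 (adjusted p = 2.51e-07).

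Genes of the region outside the rule also varied. Of the 15 left out by name, 12 were above 0 in shNC_H2O2 minus shNC, with a median of 0.37 and a range from -0.24 to 6.43. The 5 noncoding genes of the region with at least 5 CPM were MIR155HG at 1.46, LINC00205 at 0.43, PAXBP1-AS1 at 0.39, CBR3-AS1 at 0.13 and MCM3AP-AS1 at -0.32. MCM3AP-AS1 lies antisense to MCM3AP, which was at 0.73, and strand use in counting is not given in the sources used here.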

How the data were processed

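Poly(A)-selected RNA of 12 HK-2 libraries was sequenced in pairs, per the labels' protocols. The authors deposited 1 table of raw counts per library, whole numbers per Ensembl gene that were neither scaled nor pooled. HISAT2, featureCounts, Subread, DESeq2 and GRCh38 (hg38) are named per the submitters' processing notes, with no version, strand setting or annotation release given in the sources used here. Gene types and positions were taken from GENCODE, with positions for 39306 of 40649 genes, and 0 rows named no gene.

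From these counts edgeR 4.0.16 (R 4.3.3) was run with TMM factors, filterByExpr by group, and a robust quasi-likelihood fit of 1 mean per group to all 12 libraries, with Benjamini-Hochberg adjustment over 19268 genes and a threshold of 0.05. Adjusted p-values are edgeR's throughout, and values after ± are SE for log2 fold changes and SD for CPM (n = 4). The fit was tested on simulated data. Replicates differed by more than sampling noise. Floors (3 counts) cover counting error only. Genes with over 20% of exon bases in another gene, or with a copy sharing at least 20% of 50-base words, were treated as uncertain. Alternatives were DESeq2 1.42.0, library size scaling, TMM without shifted chromosomes, no low-count filter, a replicate block, leaving out libraries, other level limits (1 and 20 CPM), the names put back, other pseudocounts (0.1 and 2 CPM) and, chosen after seeing the data, short-arm copies added.

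The members, lists and classes were chosen with earlier results of these data known. Named by rule were the 8 lowest members below 0 and the 8 highest in the first comparison, the 6 followers of highest CPM, the 4 highest and 4 lowest calls of shYAP1_H2O2 minus shNC, the interferon and cytokine receptors, CCT8, GART, U2AF1, GABPA, DYRK1A and RCAN1, members and genes at the limits, YAP1 and at most 2 genes of a partner list. Others are named with 1 value as neighbours on the arm or as examples of a role.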

Additional observations from a re-analysis of the deposited data

Results flagged for a closer look

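Of 105 sets of 4 replicate values examined for the named genes and the members' share of counts, 13 held a library whose gap to its nearest neighbour exceeded Dixon's 95% critical value, where chance alone gives about 1 in 20. The members' share of counts was 0.4624% in shNC replicate 4 against 0.529% to 0.533% in the other 3, and 0.4757% in shYAP1_H2O2 replicate 3 against 0.533% to 0.539%. These are the 2 libraries of high mitochondrial share, whose part in these values was not tested. In shNC replicate 4, ICOSLG was at 2.758 CPM (others 7.73 to 8.18), CFAP410 at 3.352 CPM (others 6.03 to 6.36) and RUNX1 at 63.17 CPM (others 50 to 50.9). In shYAP1_H2O2 replicate 3, RUNX1 was at 67.19 CPM (others 47.8 to 50.5) and PDXK at 141.9 CPM (others 172 to 174). U2AF1 was at 24.77 CPM in shYAP1_H2O2 replicate 4 (others 4.52 to 5.12).

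Within shNC_H2O2 the distances were small. JAM2 was at 20.04 CPM in replicate 1 (others 18.1 to 18.2), SIK1 at 77.36 CPM in replicate 4 (others 66.7 to 67.8), IFNGR2 at 39.3 CPM in replicate 2 (others 34.6 to 34.9), HMGN1 at 322.9 CPM in replicate 2 (others 336 to 338) and C21orf58 at 13.6 CPM in replicate 3 (others 17.2 to 17.8). With these libraries included, shNC_H2O2 did not overlap shNC for JAM2, SIK1, IFNGR2 and HMGN1.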

How the results depend on the processing

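No median over the members changed sign under the alternatives run. With library size scaling the median log2 fold change was 0.558 in shNC_H2O2 minus shNC and -0.531 in shYAP1_H2O2 minus shNC_H2O2, and 5 members lagged. With a level limit of 20 CPM the medians of the 3 comparisons were 0.579, -0.501 and 0.076 (shYAP1_H2O2 minus shNC), 5 members lagged and 4 escaped. Without the 2 libraries of high mitochondrial share the first median was 0.423. In shNC_H2O2 minus shNC 67 members were then called higher and 5 lower, where 29.8% and 29.6% of all tested genes were. In shYAP1_H2O2 minus shNC_H2O2 5 were called higher and 64 lower, where 28.8% and 28.5% of all tested genes were. In shYAP1_H2O2 minus shNC 23 were called higher and 22 lower, where 24% and 22.8% of all tested genes were. In that last comparison 17 calls were gained and those of HUNK and ITGB2 lost. Over all genes the calls of the 3 comparisons went from 8971, 8288 and 6265 to 11603, 11194 and 9146 without these 2 libraries. The cause of these shifts was not tested. With a pseudocount of 2 CPM the mean level of shNC_H2O2 was 0.456. Leaving out 1 library at a time gave medians of 0.424 (without shNC replicate 4) to 0.519 in the first comparison and -0.508 to -0.446 in the second, 3 to 5 members called lower in the first (5 without shNC replicate 4), 9 to 20 called lower in shYAP1_H2O2 minus shNC (20 without shNC replicate 4) and 7 to 11 lagging (7 without shNC replicate 1). Shares of all tested genes were not computed for these fits that leave out 1 library. The call of CFAP410 in shYAP1_H2O2 minus shNC was lost in 13 alternatives (adjusted p 0.0521 to 0.133) and that of RCAN1 in 7 (0.0535 to 0.0942). Both calls were kept without the 2 libraries of high mitochondrial share. U2AF1 left the escaping members when its copy was added and without shNC replicate 1, CSTB with library size scaling, without the 2 libraries and without shNC replicate 4, and MAP3K7CL with library size scaling and without shNC_H2O2 replicate 2. CFAP410 and WDR4 joined them without the 2 libraries and without shNC replicate 4, PIGP without shNC replicate 1 or 2 or shNC_H2O2 replicate 2, and GET1 without shNC replicate 3 or shNC_H2O2 replicate 1.

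Same-numbered samples of different groups showed no steady tendency to deviate together from their group means (r from -0.325 to 0.210, over 0.1 in 2 of 12 pairs). The 2 libraries of high mitochondrial share, shNC replicate 4 and shYAP1_H2O2 replicate 3, did deviate together (r = 0.506). They shift the means of their groups, so this check cannot decide whether the numbers pair the samples. With the replicate number as a block, 25 of the 30 calls of members in shYAP1_H2O2 minus shNC were kept, 5 were lost and 1 gained, and all 61 in the first comparison were kept. At these depths 3 counts were at most 0.0974 CPM, against the members' lower limit of 5 CPM.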
